A study of Mus musculus with 6 samples.

Results

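Midkine, encoded by Mdk, and 7 other secreted growth factor and growth factor binding protein genes of the kidney were followed in 6 mouse kidneys. The 8 genes, Mdk, Vegfa, Bmp7, Fgf1, Igfbp3, Igfbp4, Igfbp5 and Igfbp7, are all among the 7373 rows of the deposited gene table, were found there by symbol, and all passed the filter on low counts. The genes were chosen by measured values, with the difference between the groups in these same kidneys known, Mdk as a gene with one of the smaller p-values, so that difference is given for them as a description and without a p-value.

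The kidneys came from adult male mice of the inbred strain FVB/N. The 3 transgenic samples were from mice that overexpress CryAB, a chaperone of muscle, carrying the R120G missense change under the α-myosin heavy chain promoter, which is active in heart muscle cells, taken before heart failure set in. The 3 control samples, whose genotype label says only Control, were from mice of the same sex and age. The value columns of every sample used, transgenic and control, carry the label Pre_IRI. RNA came from frozen pieces of whole kidney, and since the labels do not number the animals, a p-value reflects only how far these samples differ among themselves, which may be technical. In control 3 every one of the 178 X and Y genes of the table read 0, and these genes were left out of the fits except where said. None of the 8 genes lies on X or Y. The same library was far from the others on the autosomes: the first principal component (51.3% of the variance) placed it at 24.8 and the other 5 between -13.1 and 0.58. Library totals were between 23500918 and 47558065 estimated counts, with a median of 1205 to 2362 per gene. Levels are given as CPM, estimated counts scaled to the library total without X and Y genes, as adjusted by TMM normalization. All 12 proximal tubule and all 9 thick ascending limb markers looked for were measured and none was at 0. Of other lists, 9 of 14 endothelial and 6 of 12 stroma and smooth muscle markers were tested. So were 14 of 17 distal tubule and collecting duct and 8 of 13 macrophage and lymphocyte markers. The deposited genes had passed a level cut-off, so values above 0 say little about the samples. Cryab itself averaged 242 ± 44.2 CPM over the controls and 186 ± 7.88 CPM over the transgenic kidneys (SD, n = 3 each). It was read in kidney and so is no check of a transgene active in the heart.

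Midkine is a small heparin-binding growth factor that is abundant in the embryo, made by tubular epithelium in the kidney and known for its rise after tissue injury. It acts on cells through proteoglycans, integrins, low density lipoprotein receptor related proteins and receptor phosphatases. VEGF-A, made by podocytes and tubules, maintains the neighbouring capillaries. BMP7 is needed for nephron formation, FGF1 is a ligand of all FGF receptors, and the IGF binding proteins carry insulin-like growth factors and set how much of them reaches the receptor.

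RefSeq promoter sequences (GRCm38.p6) were matched for 5 of the 8 genes: Vegfa, Igfbp3, Igfbp4, Igfbp5 and Igfbp7. The 250 bases before a listed start site are shown for Vegfa, which beside Mdk differed most between the groups in the higher direction. They are also shown for Igfbp7 and Igfbp4, the most abundant of the 8. Capitals mark matches to 3 motifs or to their reverse complements (both strands were searched), the GC box GGGCGG, the hypoxia-inducible factor core ACGTG and the TATA box TATAAA. The sequences are written 5′ to 3′ on the strand of the gene, at chr17:46032378-46032627 (minus strand) for Vegfa, chr5:77408046-77408295 (minus strand) for Igfbp7 and chr11:99040994-99041243 (plus strand) for Igfbp4.
Vegfa: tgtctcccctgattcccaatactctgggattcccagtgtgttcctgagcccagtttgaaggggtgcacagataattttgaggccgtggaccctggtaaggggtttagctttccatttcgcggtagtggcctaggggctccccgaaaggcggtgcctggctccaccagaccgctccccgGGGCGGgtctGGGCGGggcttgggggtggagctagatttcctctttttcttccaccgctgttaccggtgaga
Igfbp7: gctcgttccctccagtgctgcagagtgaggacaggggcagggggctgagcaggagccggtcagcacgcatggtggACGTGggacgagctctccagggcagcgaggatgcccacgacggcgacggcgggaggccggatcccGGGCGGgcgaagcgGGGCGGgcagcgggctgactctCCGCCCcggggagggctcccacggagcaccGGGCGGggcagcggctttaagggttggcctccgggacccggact
Igfbp4: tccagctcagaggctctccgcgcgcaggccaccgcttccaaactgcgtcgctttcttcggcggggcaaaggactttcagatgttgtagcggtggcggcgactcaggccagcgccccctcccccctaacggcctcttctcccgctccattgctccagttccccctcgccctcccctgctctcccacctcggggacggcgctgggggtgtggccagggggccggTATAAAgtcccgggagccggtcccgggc

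The upstream window of Vegfa held 2 GC boxes and no match to the other motifs. That of Igfbp7 held 4 GC boxes and 1 hypoxia-inducible factor core, and the window of Igfbp4 held 1 TATA box, starting 28 bases before the listed start site. The window of Igfbp4 lies inside the listed gene (chr11:99040005-99052655) and not beside its end. So does that of Igfbp3 (window chr11:7213924-7214173, gene chr11:7206086-7215498). The windows of Igfbp3 and Igfbp5 held none of the 3 motifs, and a further listed start of Vegfa had 1 GC box and 1 hypoxia-inducible factor core. Over 32851 windows of the same length a GC box was present in 32.7%, the hypoxia-inducible factor core in 16.6% and the TATA box in 12.4%. In the 7035 windows of the genes tested here the shares were 58.9%, 22.4% and 6.20%. A match is a stretch of letters and not a measured site.

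Levels between genes were compared as CPM per kilobase of exon length (CPM per kb), with exon lengths from GENCODE M21. In the control kidneys Igfbp7, a secreted protein of vessel walls related to the IGF binding proteins, was highest, at 1221 ± 46.8 CPM per kb (SD, n = 3), above 99.4% of the 7060 genes with a length. Igfbp4, a binding protein that restrains IGF action, came next at 273 ± 10.2 CPM per kb (SD, n = 3). Igfbp5, which also binds extracellular matrix, stood at 68.0 ± 2.44 CPM per kb and Igfbp3, the main IGF carrier of blood plasma, at 58.6 ± 16.6 (SD, n = 3). Mdk had rank 5, at 45.3 ± 2.11 CPM per kb (SD, n = 3), with Vegfa close to it at 43.6 ± 5.20 (SD, n = 3). Fgf1 stood at 15.7 ± 3.41 CPM per kb and Bmp7 was lowest at 10.2 ± 0.403 (SD, n = 3). The top level was 120 times the bottom one.

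In this order the control values of Igfbp5 and Igfbp3 overlapped, as did those of Igfbp3 and Mdk and those of Mdk and Vegfa. Every other pair of neighbours was separated in all 3 controls. Igfbp5 lay above Mdk and Vegfa in every control, while Igfbp3 overlapped Igfbp5, Mdk and Vegfa. In the transgenic kidneys Mdk stood at 56.8 ± 1.74 CPM per kb and Igfbp3 at 48.4 ± 2.90 (SD, n = 3).

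**Figure D1:**
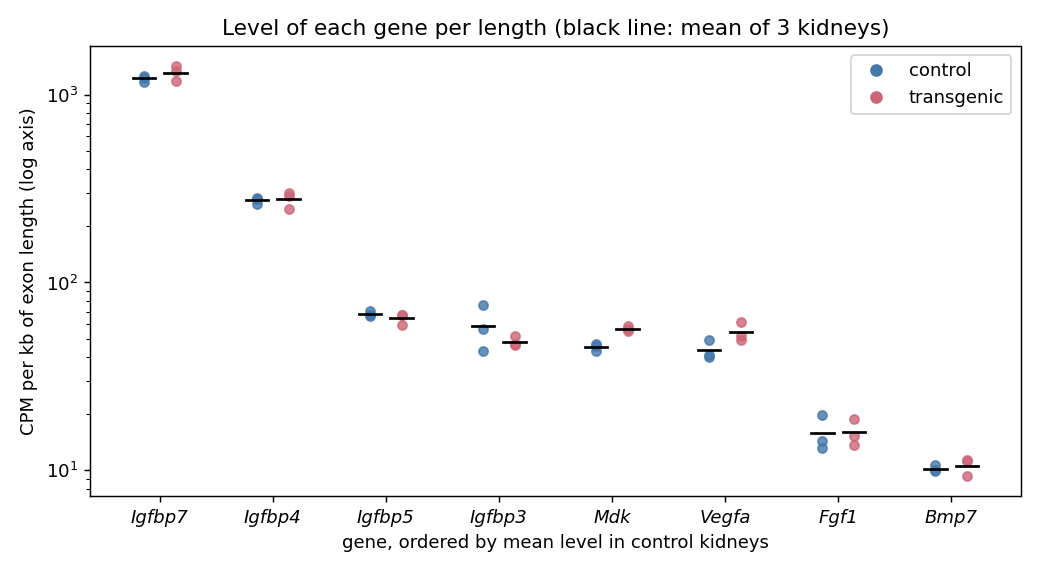
Level of each of the 8 genes in CPM per kb of exon length (log axis), with 1 point per kidney and a black line at the mean of 3 kidneys, control and transgenic side by side. Igfbp7 at 1221 CPM per kb and Bmp7 at 10.2 bound the range in controls, and the levels of Igfbp5, Igfbp3, Mdk and Vegfa lie close together.

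The groups were compared to find transcripts of the kidney that differ while the heart muscle disease is still without symptoms. Mdk (gene ID 17242; chr2:91929805-91932297, mm10) stood at 56.9, 62.3 and 60.7 CPM in controls 1, 2 and 3 and at 75.3, 72.9 and 77.5 CPM in transgenic kidneys 1, 2 and 3. All 3 transgenic kidneys lay above all 3 controls, and the gap between the groups was wider than the spread within either. The means were 60.0 ± 2.79 CPM in controls and 75.2 ± 2.30 CPM in transgenic kidneys (SD, n = 3 each), 1.25-fold higher with the transgene, and the log2 fold change was 0.33 ± 0.09 (SE). These levels rest on 1544 to 2827 estimated counts per library. Leaving out 1 kidney at a time kept the log2 fold change between 0.29 and 0.35.

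Mdk varied little within each group, which its choice by a small p-value in these same kidneys favours. Its coefficient of variation was 4.66% in controls and 3.06% in transgenic kidneys, against medians of 10.5% and 6.49% over all genes tested. That choice also favours a wide gap between the groups and a narrow range when a kidney is left out. These are given as a description, and nothing further is read from them. Control 3, which stood apart in many genes, lay between the other controls for Mdk.

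Vegfa (gene ID 22339; chr17:46016993-46032377, mm10), the endothelial growth factor gene, stood at 142, 175 and 145 CPM in controls 1, 2 and 3. In transgenic kidneys 1, 2 and 3 it stood at 217, 175 and 182 CPM. The groups did not overlap, but only just, since control 2 at 174.8 CPM lay beside transgenic kidney 2 at 175.1. The means were 154 ± 18.3 and 191 ± 22.8 CPM (SD, n = 3 each), a log2 fold change of 0.32 ± 0.12 (SE), or 1.25-fold. It was 0.22 without transgenic kidney 1, the highest, and 0.42 without control 2.

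Mdk and Vegfa were thus the 2 of the 8 genes whose groups did not overlap, both higher in transgenic kidneys, and no member lay lower without overlap. Over all 7194 genes tested, 2.96% lay higher and 3.02% lower without overlap. None of the 8 genes passed the edgeR quasi-likelihood test, where 0.0139% of all genes did, namely Ren1, the renin gene (log2 fold change 1.25 ± 0.12, SE; adjusted p = 0.0359, edgeR with Benjamini-Hochberg adjustment). That call was lost without control 1 or without any 1 of the transgenic kidneys. Since the 8 genes were chosen with this comparison known, nothing is read from these counts.

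**Figure D2:**
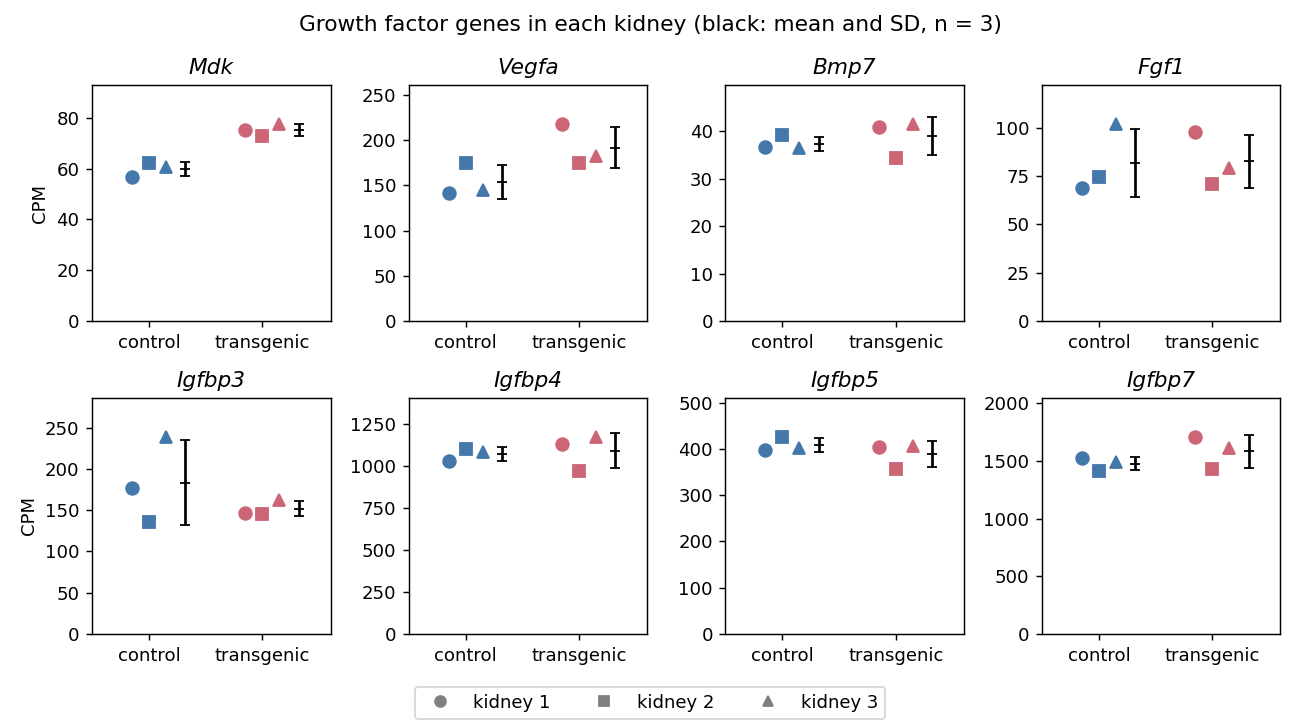
CPM (vertical axes, starting at 0) of the 8 genes in each control and transgenic kidney, with the mean and SD of each group of 3 in black. Mdk shows separate, tight groups, Vegfa groups that nearly touch at 174.8 and 175.1 CPM, and the other 6 genes groups that overlap.

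Podocytes are a main source of VEGF-A, so 3 genes of their marker list are given beside these values, and the rest of that list is not reported here. Podxl, the podocalyxin gene, stood at 84.6, 76.1 and 94.7 CPM in controls 1, 2 and 3 and at 109.9, 91.4 and 97.5 CPM in transgenic kidneys 1, 2 and 3. Its groups overlapped, and the log2 fold change was 0.23 ± 0.12 (SE). Clic5 and Cdkn1c differed by 0.05 ± 0.12 and -0.02 ± 0.16 (SE) on the log2 scale, and none of these 3 genes was at 0 in any kidney. Of 9 endothelial markers, the cells on which VEGF-A acts, 4 lay higher and 5 lower, with a summed level of 520 to 616 CPM in controls and 523 to 546 CPM in transgenic kidneys. Of the 9, 3 had groups without overlap, in both directions, beside 5.98% of all genes. Ehd3, a gene of glomerular capillaries, and Eng, the endoglin gene, lay higher by 0.32 and 0.08 on the log2 scale in transgenic kidneys, and Plvap, a gene of the diaphragms of fenestrated capillaries, lay lower, at -0.30. None of the 9 passed the edgeR test. The part of podocyte or endothelial RNA in the values of Mdk and Vegfa was not tested, and in whole kidney a different number of cells of a type and a different amount of RNA per cell cannot be told apart.

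Bmp7 (gene ID 12162; chromosome 2), a ligand of the bone morphogenetic protein family that protects tubules, stood at 36.8, 39.1 and 36.4 CPM in controls and at 41.0, 34.4 and 41.5 CPM in transgenic kidneys 1, 2 and 3. Transgenic kidney 2 lay below all controls and the other transgenic kidneys above them. The log2 fold change was 0.06 ± 0.10 (SE), and 0.14 without transgenic kidney 2 and 0.01 without transgenic kidney 3.

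Fgf1 (gene ID 14164), the gene of acidic fibroblast growth factor, stood at 68.6, 74.5 and 101.7 CPM in controls and at 97.9, 71.0 and 78.9 CPM in transgenic kidneys. The highest value of all was in control 3 and the next in transgenic kidney 1, so that both groups spanned nearly the same range. The log2 fold change of 0.02 ± 0.17 (SE) had no stable sign, at 0.21 without control 3 and -0.12 without transgenic kidney 1. Its coefficient of variation was 21.6% in controls and 16.8% in transgenic kidneys, above those of 87.3% and 93.6% of all genes.

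Igfbp3 (gene ID 16009; chromosome 11) was the member that varied most in the controls. It stood at 177, 135 and 238 CPM in controls 1, 2 and 3 and at 147, 146 and 162 CPM in transgenic kidneys. The controls bracketed the transgenic values on both sides, and their coefficient of variation of 28.3% compared with 5.99% in transgenic kidneys. The log2 fold change was -0.28 ± 0.18 (SE), and it was -0.04 without control 3 and -0.45 without control 2. The size of the difference thus depended on controls 2 and 3, of which control 3 was the library far from the others in many genes.

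Igfbp4 (gene ID 16010; chromosome 11) stood at 1027, 1103 and 1086 CPM in controls and at 1134, 971 and 1172 CPM in transgenic kidneys. Its log2 fold change was 0.03 ± 0.10 (SE), 0.10 without transgenic kidney 2 and -0.03 without transgenic kidney 3. Igfbp5 (gene ID 16011; chromosome 1) stood at 398, 425 and 402 CPM in controls and at 403, 356 and 406 CPM in transgenic kidneys. In both genes transgenic kidney 2 was the lowest of the 6. The log2 fold change of Igfbp5 was -0.07 ± 0.08 (SE), -0.01 without transgenic kidney 2 and -0.11 without transgenic kidney 3.

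Igfbp7 (gene ID 29817; chromosome 5) stood at 1525, 1414 and 1489 CPM in controls and at 1707, 1431 and 1611 CPM in transgenic kidneys. Transgenic kidneys 1 and 3 lay above all controls and transgenic kidney 2 among them. The log2 fold change was 0.10 ± 0.10 (SE), 0.17 without transgenic kidney 2 and 0.04 without transgenic kidney 1. Transgenic kidney 2 was the lowest of its group for all 8 genes, Mdk included. For Igfbp3 it was so only just, at 145.8 CPM against 146.8 in transgenic kidney 1. The share over all genes was not counted, so nothing is read from this. Transgenic kidney 2 had the fewest counts of the 6 libraries, and the part of depth in its values was not tested. The SD was larger in the transgenic group than in the controls for Vegfa, Bmp7, Igfbp4, Igfbp5 and Igfbp7. For Vegfa the coefficient of variation was 11.9% in both groups. Over all genes the median coefficient was 10.5% in controls and 6.49% in transgenic kidneys.

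**Figure D3:**
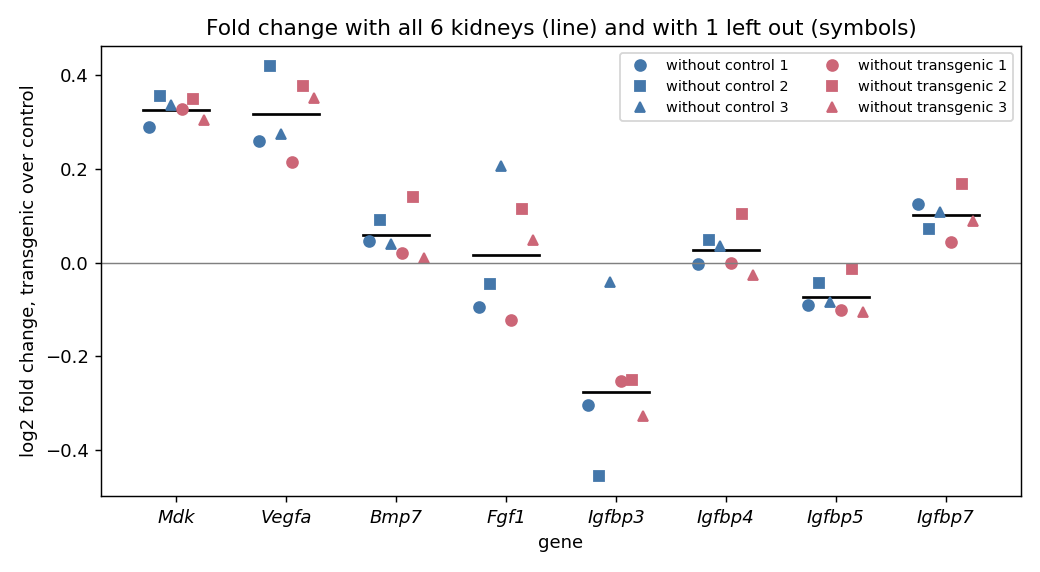
Log2 fold change of transgenic over control kidneys for each of the 8 genes, with a black line for all 6 kidneys and a symbol for each fit that leaves 1 kidney out. Mdk stays between 0.29 and 0.35, Igfbp3 moves from -0.28 to -0.04 without control 3, and Fgf1 lies on both sides of 0.

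Across the 8 genes the median log2 fold change was 0.04, with 6 lying higher and 2 lower, beside a median of 0.00 over all genes tested, of which 50.3% lay higher. The genes of the pathways around them were taken from 6 lists with 157 genes, of which 59 were tested. None of the 59 passed the edgeR test over all genes. An unadjusted p under 0.05 (edgeR) was found for 2 of the 59 (Twsg1 and Axl), beside 131 of all 7194 genes tested. Of the 59, 37 lay higher and 22 lower, and the median log2 fold change was 0.03. Their values lay between -0.31 and 0.26. Groups without overlap were found in 5 of the 59 (8.47%), beside 5.98% of all genes.

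Of 19 midkine partners and receptors 6 were tested, and 3 lay higher and 3 lower with a median of 0.00. Sdc4 and Sdc2, syndecan proteoglycans whose heparan sulfate binds midkine, differed by 0.06 ± 0.08 and -0.06 ± 0.07 (SE) on the log2 scale. Ncl, the nucleolin gene, differed by -0.04, Itgb1, the integrin β chain, by 0.00 and Lrp2, the megalin gene of the proximal tubule, by 0.01. Sdc4 stood at 286, 279 and 283 CPM in controls and 292, 310 and 282 CPM in transgenic kidneys, with overlapping groups. The nearest listed gene on either side of Mdk was Dgkz, a diacylglycerol kinase gene 524 bases away, which differed by 0.02 ± 0.12 (SE), and Ambra1, an autophagy gene 11.0 kb away, which differed by 0.07 ± 0.10 (SE). In both neighbours the groups overlapped.

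Of 17 genes of VEGF ligands, receptors and oxygen sensing 8 were tested, with 4 lying higher, 4 lower and a median of -0.03. Vegfb, the related ligand, differed by 0.01 ± 0.13 (SE) and the co-receptor gene Nrp1 by 0.03 ± 0.09 (SE). The oxygen-regulated subunit genes Hif1a and Epas1 differed by -0.16 and 0.08, the ubiquitin ligase subunit gene Vhl by -0.14 and the prolyl hydroxylase gene Egln1 by 0.09. Without control 3, Hif1a was 0.01 and Vhl 0.04.

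Of 36 genes of BMP signalling 11 were tested, with 7 lying higher, 4 lower and a median of 0.07. Twsg1, which encodes a secreted BMP-binding protein, stood at 71.6, 76.0 and 89.2 CPM in controls and at 65.5, 64.1 and 61.8 CPM in transgenic kidneys. Its groups did not overlap, and its log2 fold change was -0.31 ± 0.11 (SE), with an adjusted p of 0.997 by edgeR. Sostdc1, an antagonist of BMP7 in the distal tubule, differed by -0.22 ± 0.15 (SE), and by -0.09 without transgenic kidney 1 and -0.35 without transgenic kidney 3. Id1, Id2 and Id3, targets of BMP receptors, differed by 0.07, -0.29 and 0.20 with standard errors of 0.24, 0.38 and 0.29. Id2 stood at 348 CPM in control 3 against 137 and 140 CPM in the other controls and was 0.30 without it. The receptor gene Acvr2b differed by 0.17 ± 0.19 (SE), and by 0.00 without control 3.

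Of 23 FGF genes 7 were tested, with 6 lying higher, 1 lower and a median of 0.07. The receptor genes Fgfr1, Fgfr3 and Fgfr4 differed by 0.23 ± 0.16, 0.25 ± 0.19 and 0.20 ± 0.20 (SE), and their groups overlapped. Without control 3, Fgfr1 was 0.06 and Fgfr4 was -0.0048, and without control 1 Fgfr3 was 0.11. Kl, the gene of the co-receptor klotho, differed by 0.01 ± 0.11 (SE). Frs3, an adaptor of the receptors, and Dusp6, a feedback phosphatase, differed by 0.01 and -0.04.

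Of 19 IGF genes 8 were tested, with 4 lying higher, 4 lower and a median of 0.01. The receptor genes Igf1r and Igf2r differed by 0.07 ± 0.12 and -0.06 ± 0.09 (SE). Igfals, which encodes the subunit that holds IGFs and IGFBP3 in a plasma complex, stood at 13.3, 11.2 and 12.9 CPM in controls and at 17.7, 13.3 and 13.5 CPM in transgenic kidneys. Its groups did not overlap, but only just, with control 1 at 13.26 CPM and transgenic kidney 2 at 13.30. The log2 fold change was 0.25 ± 0.15 (SE), and 0.11 without transgenic kidney 1. The growth hormone receptor gene Ghr differed by -0.14 ± 0.11 (SE), and by -0.04 without control 3, and the insulin receptor-related gene Insrr by 0.11 ± 0.19 (SE), and by -0.10 without control 3.

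Of 43 other growth factor and receptor genes 19 were tested, with 13 lying higher, 6 lower and a median of 0.07. Egf, the epidermal growth factor gene of the distal nephron, stood at 647, 738 and 758 CPM in controls and at 631, 690.2 and 723 CPM in transgenic kidneys, and differed by -0.07 ± 0.10 (SE). Its receptor gene Egfr differed by 0.05 ± 0.10 (SE) and Met, the receptor gene of hepatocyte growth factor, by -0.25 ± 0.13 (SE), with -0.12 without control 3. Angpt2, Pdgfb and Axl, genes of an endothelial ligand, a platelet-derived growth factor and the receptor of Gas6, lay higher in all 3 transgenic kidneys, by 0.26 ± 0.14, 0.23 ± 0.11 and 0.22 ± 0.10 (SE). Axl was chosen after its values were seen. Angpt2 was 0.14 without transgenic kidney 1, and Ctgf, the connective tissue growth factor gene, differed by -0.11 ± 0.14 (SE), with 0.04 without control 3.

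**Figure D4:**
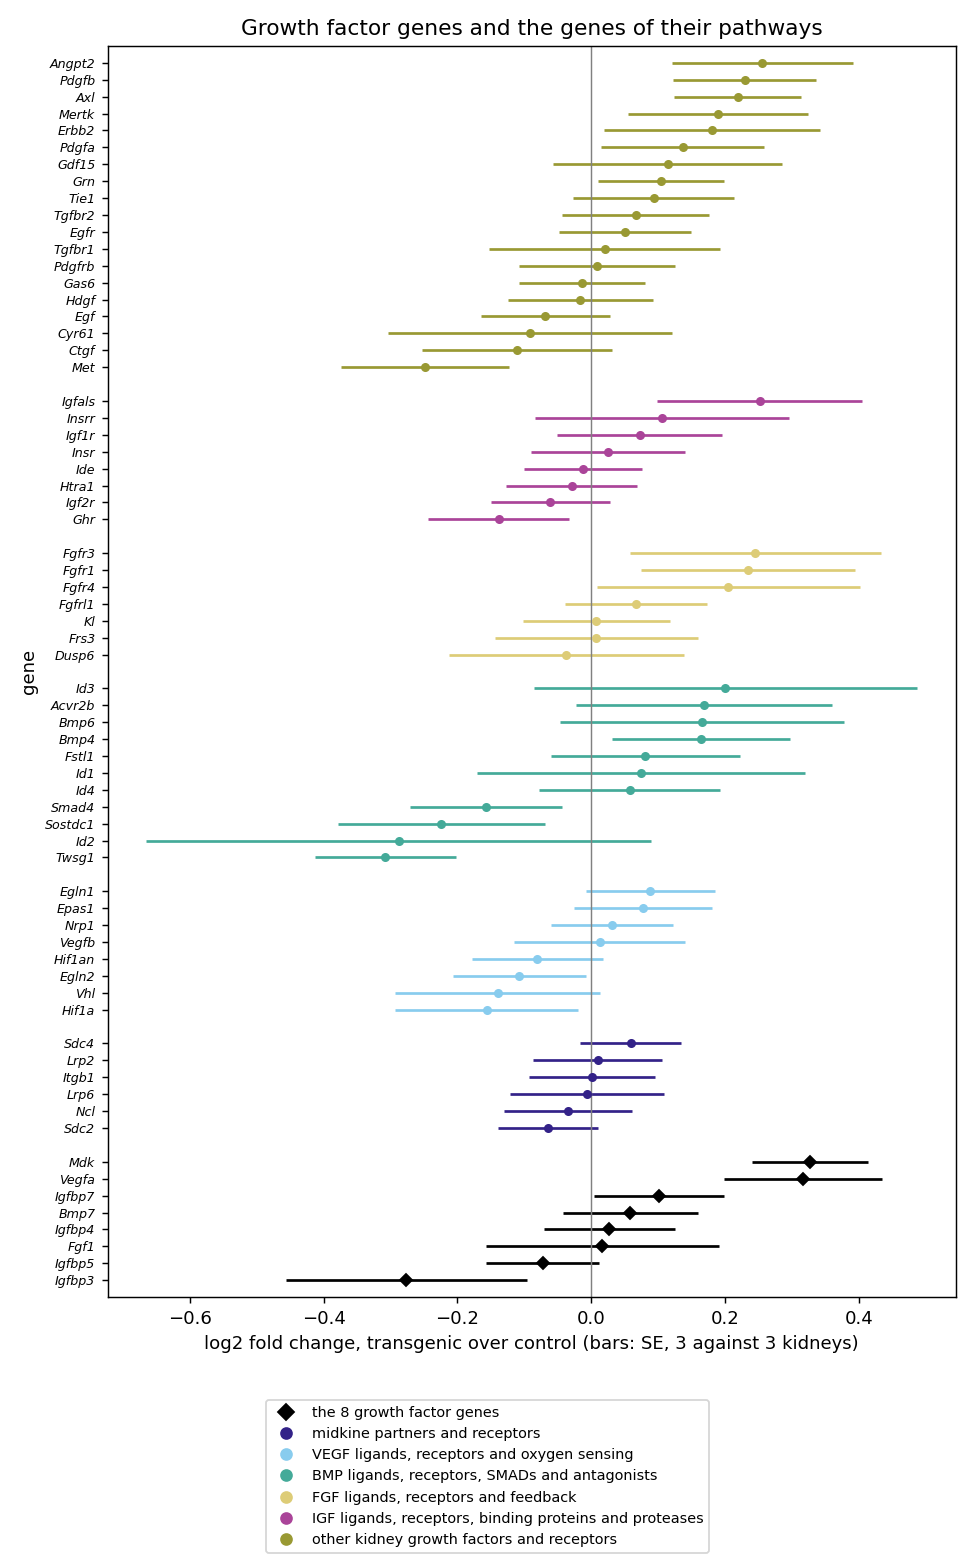
Log2 fold change of transgenic over control kidneys (horizontal axis, bars are SE, 3 against 3 kidneys) for the 8 growth factor genes in black and for the tested genes of the 6 pathway lists in colour. Mdk lies at 0.33 and Vegfa at 0.32, both chosen with these values known, and the pathway genes spread between -0.31 and 0.26.

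Genes whose profile lay nearest to that of Mdk over the 6 kidneys were found by the root mean square difference of mean-centred log2 CPM, among 6975 genes with a mean of at least 10 CPM. Mdk itself deviated from its own mean by a root mean square of 0.17. The 5 nearest were Igsf8, an immunoglobulin superfamily gene, at 0.05, Rras, a small GTPase gene, at 0.06, Tyms, the thymidylate synthase gene, at 0.07, the transcript 0610008F07Rik at 0.08 and Pdgfb at 0.08. The median gene was at 0.21. Rras stood at 20.5, 19.7 and 20.5 CPM in controls and at 24.9, 24.8 and 25.2 CPM in transgenic kidneys. Like Mdk, all 5 had separate groups, which the measure favours. Among the other members Vegfa was nearest, at 0.12 and rank 100, and Igfbp3 farthest, at 0.38 and rank 6743.

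**Figure D5:**
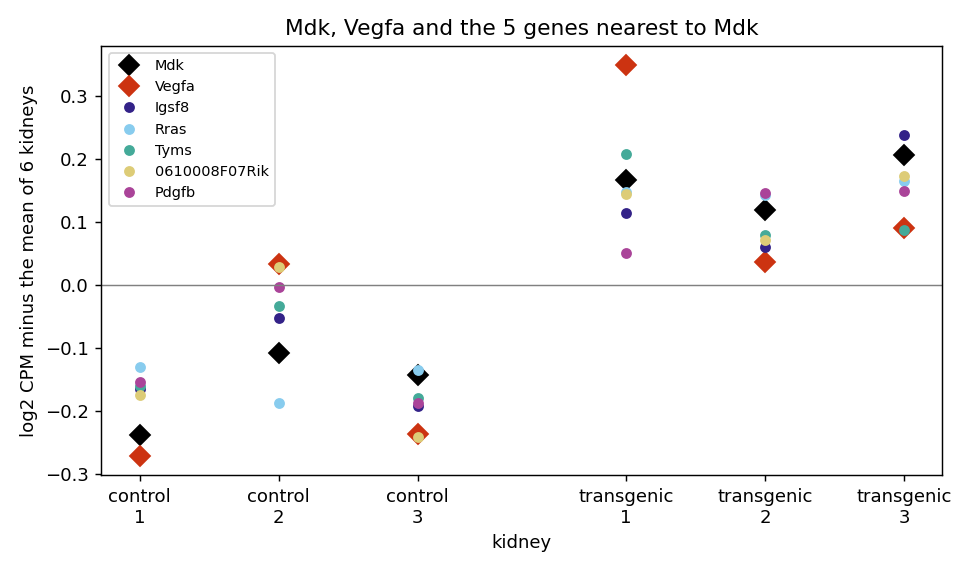
Mean-centred log2 CPM (vertical axis) in each of the 6 kidneys for Mdk, Vegfa and the 5 genes nearest to Mdk by root mean square difference. Mdk and its 5 nearest genes lie higher in every transgenic kidney than in any control. So does Vegfa, but only just, at 0.036 in transgenic kidney 2 against 0.034 in control 2, and it is highest in transgenic kidney 1.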

How the data were processed

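RNA of 3 transgenic and 3 control kidneys was sequenced on an Illumina HiSeq 2500, per the labels. The authors deposited estimated counts per gene and log2 normalized values, less a baseline per gene, in 1 table. Per the submitters' processing notes the build was mm10. Aligner and counter: not given in the sources used here. Per the file headers, the table was limited to genes with an NRPKM of 5.0 or more in 2 or more of 6 samples, so genes low in all kidneys are not part of the results. The table holds 12 further columns of per-sample values that match none of these samples and were not used.

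Estimated counts were rounded to whole numbers. Genes of X and Y were left out. Filtering (filterByExpr, 1 gene removed), TMM normalization and a two-sided quasi-likelihood test (model: group alone) used edgeR 4.0.16 (R 4.3.3), with Benjamini-Hochberg adjustment over 7194 genes and a threshold of 0.05. Standard errors are the log2 fold change over the square root of F. CPM use TMM library sizes. With 3 against 3, an exact permutation test cannot go below p = 0.1. No 2 libraries agreed within sampling noise (chi-square per degree of freedom at least 23.3). Simulated counts with known changes were also put through the fit. They held no library set apart as control 3 was, and nothing is read from them. Alternatives used DESeq2 1.42.0 and limma 3.58.1, the latter also on the deposited log2 values. Positions come from the RefSeq gene table of GRCm38.p6, matched by gene ID for 7356 of 7373 rows, and lengths from GENCODE M21, known for 7060 genes tested.

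The 8 genes, the gene lists and the rule for named genes were chosen with earlier results of these data known. The rule named the 8 genes, genes called over all genes, in each pathway list the 2 highest and 2 lowest by log2 fold change and a set of main ligands and receptors, the 5 genes nearest to Mdk and its neighbours. Lists of 7 cell types were also counted. Of the podocyte list, 3 genes are given singly and the rest is not reported here. The median log2 fold changes of the others were -0.05 for endothelium, 0.09 for stroma and smooth muscle, 0.05 for proximal tubule, -0.10 for thick ascending limb, -0.02 for distal tubule and collecting duct and -0.18 for macrophage and lymphocyte genes, with no gene called.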

Additional observations from a re-analysis of the deposited data

How the results depend on the processing

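The count of genes called was 1 (131 with an unadjusted p under 0.05, edgeR). It was 0 with X and Y genes kept (112 under 0.05), 0 with limma on the authors' log2 values (134), 2 with DESeq2 (Ren1 among them), and 0 to 2 when 1 library was left out. The 2 came without control 3 (Hba-a2 and Ren1). Genes with an unadjusted p under 0.05 numbered 634 with limma-voom array weights, 597 without control 2 and 47 without transgenic kidney 1. No pathway gene and none of the 8 genes was called with all libraries or in any of the 16 alternatives. The log2 fold change of Mdk was 0.39 with limma-voom array weights, and between 0.29 and 0.35 in the other alternatives. Vegfa, Bmp7, Igfbp3, Igfbp5 and Igfbp7 kept their sign in all 16 alternatives, and Fgf1 and Igfbp4 changed it in 3 each. By CPM without length Mdk had rank 7 of the 8 (main rank 5), and with the longest transcript as length, an alternative chosen after seeing the data, it kept rank 5.

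With the replicate number as a block 1 gene was called (Ren1), none of the pathway genes (0), and Mdk was 0.33. Deviations of same-numbered kidneys correlated at -0.0015, -0.03 and 0.33 over genes, and among controls only control 3 correlated best with its own number, so the numbers were not taken to pair the samples (not every pair was over 0.1).

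Some pathway genes changed sign, among them Id2, Fgfr4 and Id3, with log2 fold changes of -0.29, 0.20 and 0.20 over all 6 kidneys, and the cause was not tested. With array weights Egf was 0.028, Frs3 -0.10, Id2 0.28, Insrr -0.10, Ncl 0.011, Nrp1 -0.014 and Vegfb -0.040. With 1 library left out in turn Egf stayed below 0 on the log2 scale, and the genes named next lay on both sides of 0. Ctgf ranged from -0.25 to 0.038, Dusp6 from -0.16 to 0.12, Egfr from -0.0030 to 0.12 and Fgfr4 from -0.0048 to 0.42. Frs3 ranged from -0.13 to 0.11, Hif1a from -0.24 to 0.013, Id1 from -0.16 to 0.23 and Id2 from -0.52 to 0.30. Id3 ranged from -0.090 to 0.51, Igf1r from -0.023 to 0.22, Insrr from -0.10 to 0.22 and Itgb1 from -0.062 to 0.074. Kl ranged from -0.050 to 0.12, Lrp2 from -0.046 to 0.064, Ncl from -0.10 to 0.058 and Nrp1 from -0.012 to 0.073. Vegfb ranged from -0.098 to 0.11 and Vhl from -0.26 to 0.038. Each of the 8 genes had at least 786 estimated counts in every library, and the spread among 3 kidneys a group limits the comparison.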
